A study of Bos taurus with 2 samples.

Results

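The melanocortin receptor system and the regulators that form and maintain melanocytes were examined in the muzzle of 2 HanWoo cows, the native Korean breed. The 10 genes were MC1R, ASIP, POMC, ATRN, MGRN1, MITF, SOX10, KIT, KITLG and EDNRB. They were chosen by name, but with earlier results of these data known. A probe was assigned to a gene where RefSeq lists its accession for that gene (assembly ARS-UCD2.0). In this way 19 of 43639 noncontrol probes were found, for 9 of the 10 genes, and SOX10 was not analysed here because no probe was matched to it. Each array came from 1 female cow, 30 months old. One had a muzzle labelled yellow (the light-muzzle cow) and the other a muzzle labelled black (the dark-muzzle cow). Muzzle tissue of each was snap frozen, and its RNA was read alone on a 1-colour Agilent array. MC1R genotypes of these cows are not given in the sources used here. With 1 cow per colour, a difference between the arrays is a difference between 2 animals, it has no replicate check, and no test was made.

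Melanocytes make black-brown eumelanin or yellow-red pheomelanin. Alpha-MSH, cut from the precursor POMC, activates MC1R on the melanocyte and raises cyclic AMP, which increases MITF and the pigment enzymes and favours eumelanin. Agouti signalling protein (ASIP) blocks MC1R with the help of attractin (ATRN), and the ubiquitin ligase MGRN1 acts in the same pathway. In mice, loss of ATRN or of MGRN1 darkens the coat. MITF, SOX10, the receptor kinase KIT with its ligand KITLG, and the endothelin receptor EDNRB are needed for melanocytes to form, migrate and survive.

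Each level is the processed signal of a spot, a background-subtracted intensity, or its log2 value after subtraction of the 75th percentile of its array (an intensity of 1144 in the light-muzzle and 1137 in the dark-muzzle cow). The error given with a signal or ratio is the one the scanner software assigns to the spot, a technical error that leaves out the spread between cows. Log2 ratios are dark-muzzle minus light-muzzle. Noncontrol spots well above background numbered 34519 (78.8%) on the light-muzzle and 35855 (81.9%) on the dark-muzzle array. The ratio varied between spots of the same probe with a median SD of 0.049 over 36 probes, and between probes of the same gene with a median SD of 0.17 over 5363 genes. A probe called detected was marked well above background by the software. Where a probe was well above background on 1 array only, its difference is a lower bound. On the dim side it was given the detection limit of that array (the lowest level there that was well above background). Its own dim level was used if that was larger, and the value is then the plain difference and not a bound. Values of either kind are given without a software error. Signals of different probes are not compared with each other, since probes bind with different strength.

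Of the 19 probes, 15 were measured on both arrays, 2 were well above background for the dark muzzle alone, 1 for the light muzzle alone, and 1 for neither. At 2-fold, 1 of 18 probes with a ratio or bound was higher in the dark-muzzle cow (EDNRB, by its bound) and 1 was lower (MGRN1). Over all probes, 9.76% of 36631 were at least 2-fold higher and 7.17% at least 2-fold lower. The shares among the 18 probes were therefore no larger than those on the whole array. The median log2 ratio of the 15 measured probes was -0.023, beside 0.0038 over all 33451 measured probes, and 7 of the 15 were above 0, beside 50.3% of all measured probes. Of these 15, 8 lay between the quartiles of all measured probes, -0.35 and 0.40.

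**Figure D1:**
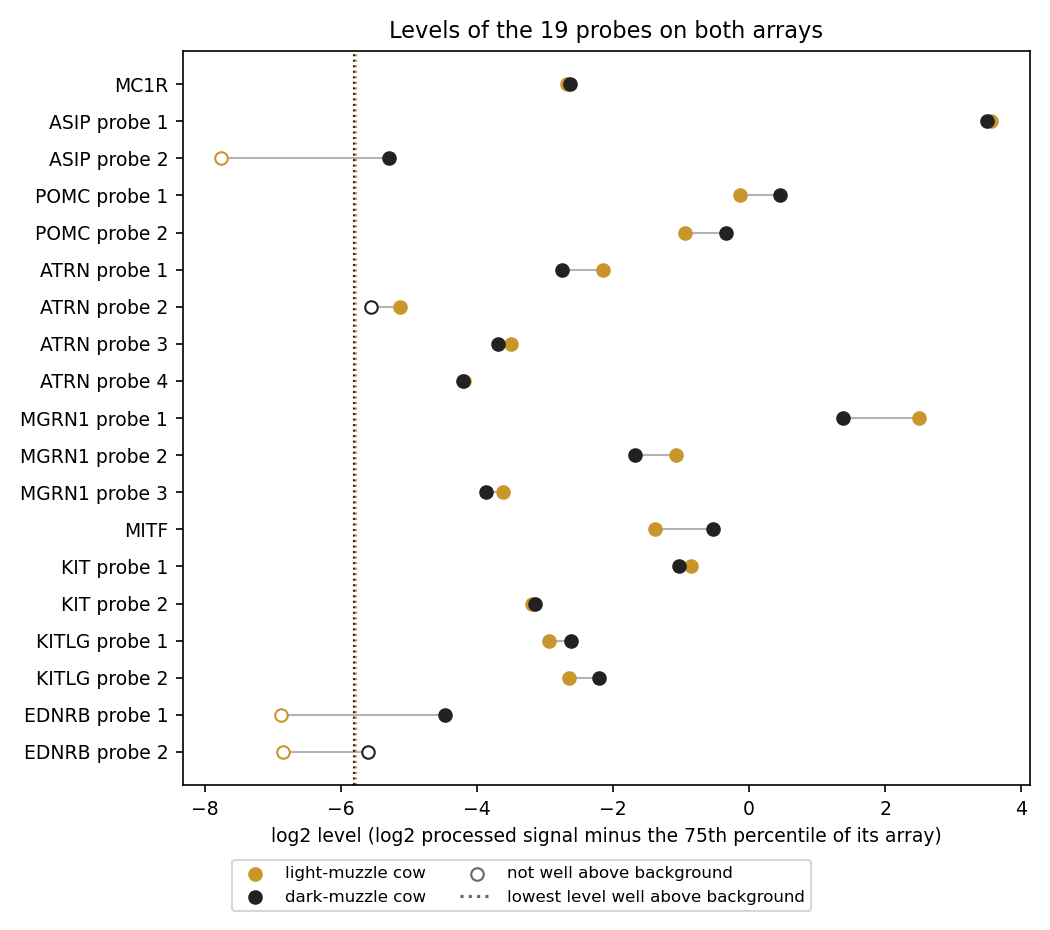
Log2 level of each of the 19 probes (rows) in the light-muzzle cow (yellow points) and the dark-muzzle cow (black points). Open points were not well above background and dotted lines mark the lowest level that was. The POMC, KITLG and MITF probes were higher in the dark-muzzle cow, while the MGRN1 and ATRN probes were higher in the light-muzzle cow, although ATRN probe 4 had a log2 ratio of only -0.023.

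POMC, the precursor of alpha-MSH, ACTH and beta-endorphin, was higher in the dark-muzzle cow on both of its probes. Probe A_73_P030246 gave a signal of 1045 ± 105 in the light-muzzle and 1566 ± 157 in the dark-muzzle cow, which is 1.51-fold higher (log2 ratio 0.59 ± 0.20). Probe A_73_P342431 gave 595 ± 59.6 and 904 ± 90.5, which is 1.53-fold higher (0.61 ± 0.20). The probes thus differed by 0.020 on the log2 scale, less than the median spread between probes of a gene. Ratios at or above these were held by 17.1% and 16.5% of all measured probes. Among the 2999 genes with 2 measured probes, 43.7% had both above 0. POMC is a precursor that is cut by enzymes, so its RNA level does not measure alpha-MSH.

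MC1R, the receptor for alpha-MSH, was nearly level between the cows. Its only probe, A_73_P036956, gave a signal of 179 ± 18.6 in the light-muzzle and 184 ± 19.2 in the dark-muzzle cow. The dark-muzzle cow was 1.04-fold higher (log2 ratio 0.052 ± 0.21), a difference within the error.

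ASIP, the antagonist of MC1R, had a bright and a dim probe whose values differed. The bright probe, A_73_P437651, gave 13488 ± 1349 in the light-muzzle and 12896 ± 1290 in the dark-muzzle cow, so that the log2 ratio was -0.056 ± 0.20. The dim probe, A_73_107408, was detected in the dark-muzzle cow (28.9 ± 5.94) but not in the light-muzzle cow (5.29 ± 5.27). Set against the detection limit of the light-muzzle array, 20.8, the dark-muzzle signal was 1.39-fold higher, a log2 bound of 0.48. This bound leaves out the error of 5.94. In the light-muzzle cow 51 of 153 negative control spots were at least as bright as this probe, and in the dark-muzzle cow 3 of 153. Of all probes, 5.18% were likewise detected in the dark-muzzle cow alone. Both probes carry the single RefSeq accession of ASIP, and which of them follows the transcript better was not tested.

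ATRN, the membrane protein through which agouti acts, was lower in the dark-muzzle cow on each of its 4 probes, but by more than 2 software errors on only 1. Probe A_73_104513 gave 258 ± 26.3 in the light-muzzle and 169 ± 17.6 in the dark-muzzle cow, 1.52-fold lower (log2 ratio -0.60 ± 0.21). Probe A_73_P048236 gave 101 ± 11.7 and 88.4 ± 10.73 (-0.19 ± 0.24), and probe A_73_P101481 gave 62.8 ± 8.04 and 61.5 ± 7.92 (-0.023 ± 0.26). The latter pair differed by less than their errors, and the sign of the last turned under normexp background correction, to 0.011. The remaining probe, A_73_P180212, was detected in the light-muzzle cow alone, as were 2.12% of all probes. It gave 32.8 ± 5.95 in the light-muzzle and 24.1 ± 5.47 in the dark-muzzle cow. The dark-muzzle signal lay above the detection limit of that array, 20.3. The value of this probe, 1.35-fold in favour of the light muzzle, is therefore the plain difference and not a lower bound. The mean log2 ratio of the 3 measured probes was -0.27. Among the 1522 genes with 3 measured probes, 27.6% had all of them below 0.

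MGRN1, the E3 ubiquitin ligase known from the mahoganoid mouse, had the lowest mean ratio of the group and the lowest ratio of a single probe. Probe A_73_108216 gave a signal of 6433 ± 643 in the light-muzzle and 2975 ± 298 in the dark-muzzle cow. It was 2.15-fold lower there (log2 ratio -1.10 ± 0.20), and 5.77% of all measured probes had a ratio this low or lower. Probe A_73_P058141 gave 543 ± 54.5 and 356 ± 35.9, 1.52-fold lower (-0.60 ± 0.21), and probe A_73_P288016 gave 93.0 ± 10.4 and 77.6 ± 8.97, 1.19-fold lower (-0.25 ± 0.23). The 3 probes had 1 direction and different sizes, with a mean log2 ratio of -0.65 and an SD between probes of 0.43, above the median SD of 0.17. All probes were below 0 in 27.6% of the 1522 genes with 3 measured probes, so a shared direction alone is common on these arrays. RefSeq lists 7 transcripts of MGRN1, and its probes carry the accession of 1 of them.

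**Figure D2:**
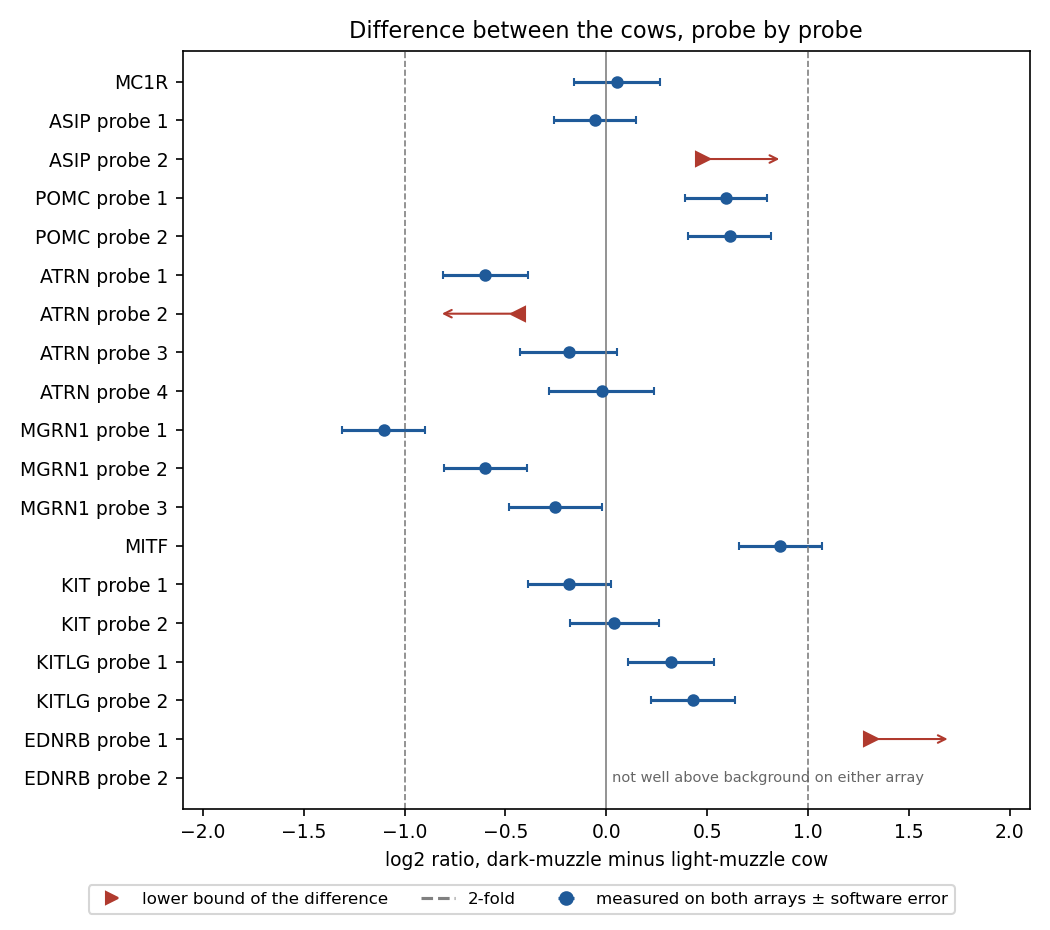
Log2 ratio (dark-muzzle minus light-muzzle cow) of each probe, with the software error of the ratio as bars. Triangles with arrows are lower bounds, except that of ATRN probe 2, which is the plain difference, and dashed lines mark 2-fold. Only MGRN1 probe 1 (-1.10) and the bound of EDNRB probe 1 (1.31) lie beyond 2-fold, and the bars of MC1R, ASIP probe 1, ATRN probes 3 and 4 and both KIT probes cross 0.

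MITF, the transcription factor that switches on TYR, TYRP1, DCT and PMEL, had the highest ratio among the members measured on both arrays. Its single probe, A_73_P032176, gave 437 ± 43.9 in the light-muzzle and 789 ± 79.1 in the dark-muzzle cow. This is 1.82-fold higher (log2 ratio 0.86 ± 0.20), short of 2-fold, and 10.5% of all measured probes had a ratio this high or higher. RefSeq lists 17 transcripts of MITF, which is made in several forms in melanocytes and other cells, and this probe carries the accession of 1. In whole muzzle tissue, more cells of a type and more RNA per cell cannot be told apart.

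Melanocyte markers were higher beside MITF. Of 10 marker genes listed, only 5 had probes. Of these 5, 4 were higher by at least 2-fold with the dark muzzle (TYR, PMEL, SLC24A5 and, by its bound, TYRP1), beside 9.86% of 8914 RefSeq genes. DCT had a log2 ratio of -0.52 on 1 probe, while its other probe was detected with the dark muzzle alone, with a bound of 0.54. The summed level over all 9 probes of the list was 2.39 times the 75th percentile signal in the light-muzzle cow and 5.12 times in the dark-muzzle cow. Such a sum, given here for each marker list, adds the signals of all its probes, so genes with more or brighter probes weigh more. On none of its 3 probes was TYRP1 detected in the light-muzzle cow. The part of these cells in the MITF ratio was not tested.

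KIT, the receptor kinase of melanocytes and mast cells, was nearly level. Probe A_73_113522 gave 636 ± 63.8 in the light-muzzle and 557 ± 55.9 in the dark-muzzle cow (log2 ratio -0.18 ± 0.20). Probe A_73_P087626 gave 125 ± 13.5 and 128 ± 13.7 (0.040 ± 0.22). Both ratios lay within their errors and their signs were opposite, as in 22.8% of the 2999 genes with 2 measured probes. Mast cells also make KIT, and their 3 markers with probes did not move together: TPSB2 had a log2 ratio of 1.16, HDC one of -0.48 and FCER1A one of -0.63. The summed level of the mast cell list was 0.45 in the light-muzzle and 0.46 in the dark-muzzle cow.

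KITLG, the ligand that keratinocytes and fibroblasts present to KIT, was higher in the dark-muzzle cow on both probes. Probe A_73_P051146 gave 148 ± 15.7 in the light-muzzle and 184 ± 19.1 in the dark-muzzle cow, 1.25-fold higher (log2 ratio 0.32 ± 0.21). Probe A_73_110108 gave 184 ± 18.8 and 246 ± 24.9, 1.35-fold higher (0.43 ± 0.21). Only the second exceeded its error more than 2 times. Both probes were above 0 in 43.7% of genes with 2 measured probes. Of 4 keratinocyte markers, KRT10 (1.57) and DSG1 (0.25) were above 0 and KRT14 (-0.41) and KRT5 (-0.52) below it, and of 5 fibroblast markers only LUM (0.21) was above 0. The summed level was 896 in the light-muzzle and 1069 in the dark-muzzle cow for keratinocyte markers, and 595 and 417 for fibroblast markers. The part of these cells in the KITLG ratios was not tested.

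EDNRB, the receptor through which endothelin-3 acts on melanocyte precursors, was dim on both probes. Probe A_73_P038281 gave 51.5 ± 7.60 in the dark-muzzle cow and was not detected in the light-muzzle cow (9.77 ± 5.69). Set against the detection limit of the light-muzzle array, 20.8, the dark-muzzle signal was 2.49-fold higher, a log2 bound of 1.31. This bound leaves out the error of 7.60. It fell below 2-fold, to 0.46, under normexp background correction. That correction adds an offset of 50 to every signal, which draws the ratio of a dim probe towards 0. Negative control spots at least this bright numbered 5 of 153 in the light-muzzle cow and 0 of 153 in the dark-muzzle cow. The brightest negative control of the dark-muzzle array reached 50.3. Probe A_73_P377566 was well above background in neither cow, as were 16.1% of all probes, with signals of 9.88 ± 5.46 and 23.4 ± 5.81, and it has no ratio. Both EDNRB signals were larger in the dark-muzzle cow, but only 1 of the 4 was well above background.

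Other cells can make EDNRB, and their markers differed between the cows as well. All 6 endothelium markers with probes were higher with the dark muzzle, and their log2 ratios lay between 0.26 (KDR) and 1.14 (PECAM1), with a median of 0.74. Their summed level was 4.36 in the light-muzzle and 8.08 in the dark-muzzle cow. The 7 measured Schwann cell markers had a median log2 ratio of -0.070, from -0.80 for S100B to 0.24 for PMP22. PMP2 was detected in the light-muzzle cow alone, with a plain difference of -1.17. It was the only 1 of 8 Schwann cell markers with probes at least 2-fold apart, beside 9.86% of RefSeq genes higher and 6.47% lower. The summed level of the Schwann cell list was 48.4 in the light-muzzle and 37.9 in the dark-muzzle cow. The part of either cell type in the EDNRB bound was not tested.

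Ordered by mean log2 ratio, the measured members ran from MITF (0.86), POMC (0.60) and KITLG (0.38) through MC1R (0.052), ASIP (-0.056) and KIT (-0.072) to ATRN (-0.27) and MGRN1 (-0.65). Between neighbours in this order, the widest gap was that of ATRN and MGRN1, 0.38. It stands beside SDs between probes of 0.30 for ATRN and 0.43 for MGRN1. No error is given for these means, because probes of a gene on the same 2 arrays are not replicates. Of the single probes, 7 of 15 had a ratio above 2 times its software error. Every probe of MITF and POMC did, and none of MC1R, ASIP or KIT. Having only 2 arrays limits how precise this order is.

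**Figure D3:**
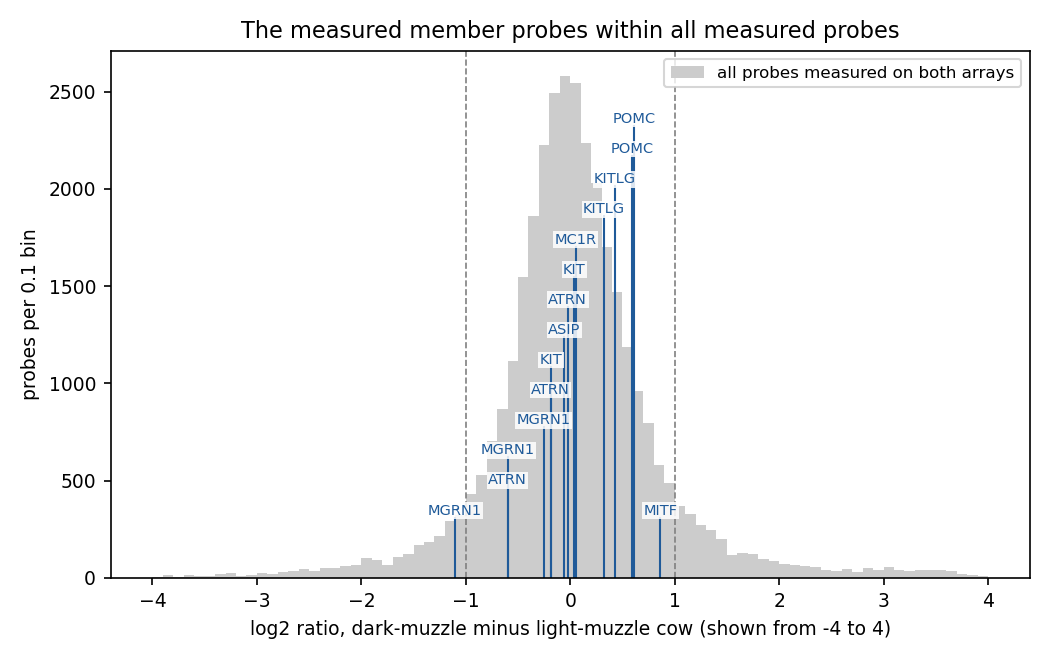
Number of probes per 0.1 of log2 ratio for all probes measured on both arrays (grey bars, shown from -4 to 4), with the 15 measured member probes as blue lines whose height has no meaning. The lines lie in the central part, with MGRN1 (-1.10) lowest and MITF (0.86) highest.

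Markers of muscle and gland also differed between the arrays, which stands beside all these values. All 8 skeletal muscle markers with probes had ratios of at least 2-fold in favour of the dark muzzle, with a median log2 ratio of 3.01 and summed levels of 592 in the light-muzzle and 3376 in the dark-muzzle cow. Of 5 serous gland markers, 3 were at least 2-fold lower there (PIP, PIGR and CA6) and 1 higher (BPIFA1), with summed levels of 338 and 28.4. Their part in the member ratios was not tested. Spots around the member probes had median log2 ratios between -0.15 and 0.16, and none of the member spots was saturated or marked as an outlier.

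Among the other genes of the melanocortin pathway, 11 of 15 listed had probes and 7 had a ratio or bound. Of these, 2 were higher by at least 2-fold with the dark muzzle and 0 lower by that much, beside 9.86% and 6.47% of RefSeq genes. OPRM1, the mu opioid receptor, which binds beta-endorphin, had a log2 ratio of 1.29 on 1 probe. LOC789175, listed under the synonym DEFB103, had a ratio of 1.04 on 1 probe. A beta-defensin of that name is a ligand of the melanocortin receptor in dogs. GNAS, the stimulatory G protein subunit that couples MC1R to adenylate cyclase, was higher on all 6 probes, from 0.34 to 0.86, with a mean of 0.54. MRAP2, a melanocortin receptor accessory protein, had a ratio of -0.56, and PCSK1, which cuts POMC, was detected on 1 of its 2 probes, in the light-muzzle cow alone, with a bound of -0.55. AGRP, the relative of ASIP, had a ratio of -0.064 on 1 dim probe, with levels of -4.85 in the light-muzzle and -4.92 in the dark-muzzle cow. Its other probe was detected in the dark-muzzle cow alone, with a bound of 0.012. MC2R, MC4R, MC5R and PCSK2 were not well above background in either cow.

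Among the partners of the endothelin receptor and of KIT, all 12 genes with probes (of 16 listed) were measured, with a median log2 ratio of -0.17. None was at least 2-fold higher and 2 were at least 2-fold lower, beside 9.86% and 6.47% of RefSeq genes. These were LYN, a Src family kinase (-1.19, with 3 probes from -1.22 to -1.13), and ECE2, an endothelin-converting enzyme (-1.14, with 2 probes). EDNRA, the other endothelin receptor, followed with -0.88 on 3 probes. The ligands EDN3 (0.62, from probes at 0.13 and 1.12) and EDN1 (0.55) and the converting enzyme ECE1 (0.43) had the highest ratios. EDNRA and the only EDNRB probe with a bound thus lay on opposite sides of 0.

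Of 18 other transcription factors of the melanocyte lineage and relatives of MITF, 11 had probes. The median log2 ratio of the 10 measured was 0.0048. TFAP2B was 2.33-fold lower with the dark muzzle (-1.22 on 1 probe) and the only one at least 2-fold apart. By that measure 9.86% of RefSeq genes were higher and 6.47% lower. TFAP2A, a partner of MITF at pigment genes, had a ratio of -0.81 over probes at -0.60 and -1.02, and SOX5 one of -0.76 over probes from -1.27 to 0.15. TFEC, a relative of MITF, was detected in the dark-muzzle cow alone, with a bound of 0.87, SNAI2 had a ratio of 0.29 and ZEB2 one of 0.19. Of the genes known as MITF targets outside pigment, 0 of 10 measured reached 2-fold in either direction, beside 9.86% of all RefSeq genes higher and 6.47% lower. Their median log2 ratio was -0.16, with CDKN1A (0.66), BCL2A1 (0.39) and BCL2 (0.18) highest and PPARGC1A (-0.83), CTSK (-0.63) and HIF1A (-0.57) lowest.

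**Figure D4:**
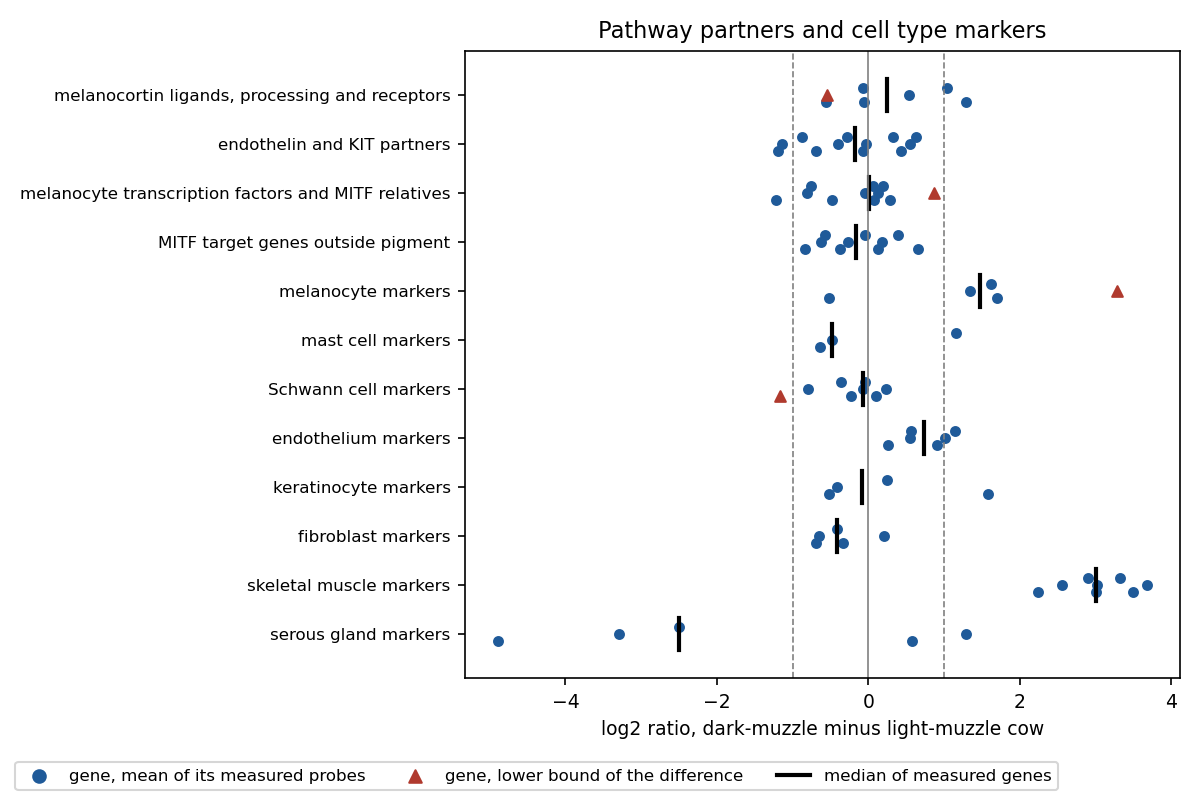
Log2 ratio (dark-muzzle minus light-muzzle cow) of each gene in the lists of pathway partners and cell type markers. Blue points are the mean of a gene's measured probes and triangles are lower bounds (for PMP2 the plain difference). Black bars are medians of measured genes and dashed lines mark 2-fold. The medians of muscle (3.01), melanocyte (1.48) and endothelium markers (0.74) lie above 0 and that of gland markers (-2.50) below it.

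The ratios were recomputed with other normalizations, background corrections and filters. The probes of MITF (0.83 to 0.89), POMC (0.45 to 0.64), KITLG (0.30 to 0.43) and MGRN1 (-1.16 to -0.15) kept their sign throughout, and MGRN1 A_73_108216 stayed beyond 2-fold (-1.16 to -1.10). The ratio of MC1R lay between 0.031 and 0.060. The dim probes moved most, and the bound of EDNRB ranged from 0.46 to 1.31.

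**Figure D5:**
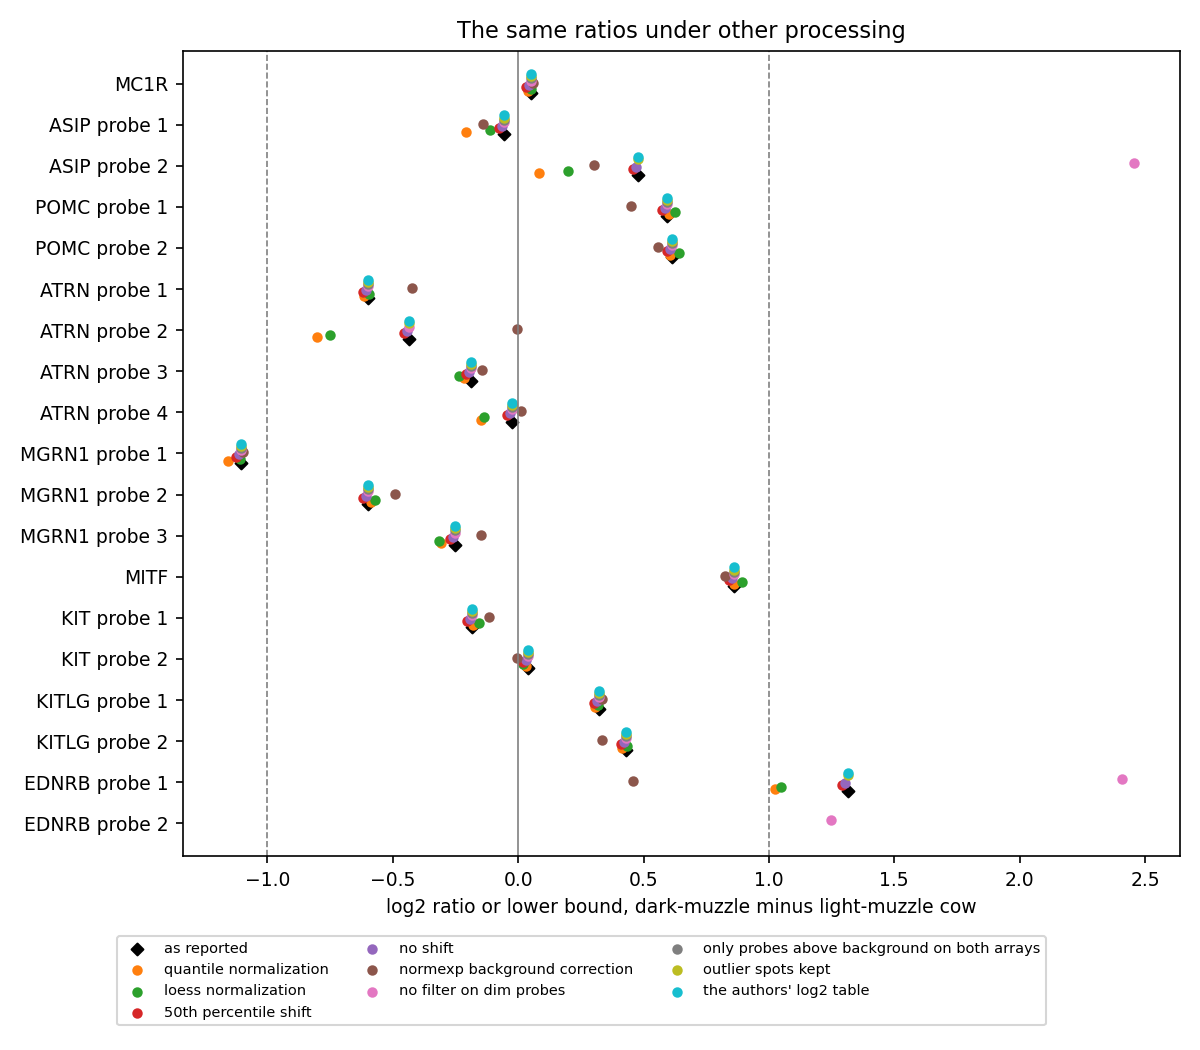
Log2 ratio or lower bound of each probe (rows) as reported (black diamonds) and under 9 other processing choices (coloured points). Points of the probes measured on both arrays lie close together, while the dim probes of ASIP, ATRN and EDNRB spread, with unfiltered values of 2.46 for ASIP probe 2 and 2.41 for EDNRB probe 1.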

How the data were processed

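The authors scanned both arrays, which lay on the same slide, and deposited what Agilent Feature Extraction 10.7.3.1 wrote for each. Per the file headers, the processed signal is an intensity that this software corrected for background and spatial trend. The authors also deposited log2 values normalized in GeneSpring, which match the processed signals shifted to the 75th percentile of their array and served only as an alternative. Noncontrol spots marked as outliers on either array (21) were dropped, and repeated spots of a probe were averaged on the log2 scale. Probe accessions matched RefSeq symbols for 20587 of 43639 probes. The arrays were designed on another assembly, so no coordinates are given. Each gene of the pathway and marker lists takes the mean of its measured probes, or otherwise the bound farthest from 0. Genes named with a ratio from those lists come from the 3 highest and 3 lowest of each, and those at least 2-fold apart in the pathway lists. Members and lists were chosen with earlier results of these data known. Counting was tested on simulated data, in which every raised and lowered probe was recovered. The simulated shifts were well beyond 2-fold, with little noise, and only in probes detected on both arrays. This checked the code and cannot show how reliably differences as small as those of the members are counted. The alternatives were shifting to the 50th percentile or not at all, loess (span 0.3) or quantile normalization, normexp on median pixel signals (offset 50), dim probes unfiltered or dropped when dim on either array, outliers retained, the deposited log2 table, and thresholds of 1.5-fold and 3-fold. limma 3.58.1 in R 4.3.3 and Python 3.11.15 with numpy 2.4.6 and pandas 2.3.3 were used. RT-PCR and in situ hybridization data were not analysed here.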

Additional observations from a re-analysis of the deposited data

How the results depend on the processing

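No paired analysis was possible because each group holds 1 array, and for the same reason no array could be left out. Counts of member probes at least 2-fold higher (1 as reported) were 0 under normexp, 3 without a filter on dim probes, 0 with only probes above background on both arrays, 4 at 1.5-fold and 0 at 3-fold. The count at least 2-fold lower (1) was 3 at 1.5-fold and 0 at 3-fold. Over all probes, the count at least 2-fold higher was 2132 under normexp, 6018 without a filter on dim probes, 7226 at 1.5-fold and 1620 at 3-fold, beside 3575, and the count at least 2-fold lower was 1563 under normexp, 5542 at 1.5-fold and 1169 at 3-fold, beside 2626. The dim ASIP probe had bounds of 0.084 (quantile), 0.20 (loess) and 0.30 (normexp) and an unfiltered ratio of 2.46. The dim ATRN probe had values of -0.80 (quantile), -0.75 (loess) and -0.0042 (normexp), and ATRN A_73_104513 a ratio of -0.42 under normexp. The EDNRB bound was 1.02 (quantile), 1.05 (loess) and 0.46 (normexp), and its unfiltered ratio 2.41. Under normexp the list median was 1.09 for melanocyte and -0.21 for mast cell markers, beside 1.48 and -0.48. The sign of KIT A_73_P087626 turned under normexp, to -0.0042. The normexp setting adds an offset of 50 to every signal, which draws the ratios of dim probes towards 0. Other causes of these shifts were not tested. The other 292 of 320 recomputed values moved by less than 0.17 on the log2 scale, the median SD between probes of a gene, or, for counts, by no more than 1.5 times. Many of these could hardly move. The filters and retained outliers left the ratios of the measured member probes unchanged, and another shift moved all probes alike. The signal over background limits the dim probes, and 1 array per group limits all.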
